A study of Mus musculus with 8 samples.

Results

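Genes of DNA replication, mitosis and cell cycle control were compared between ascites-enriched macrophages of embryonic origin (AeEM) and ascites-enriched macrophages derived from monocytes (AeMM). A set of 48 genes was chosen by name for these roles from a table of 23469 genes, and 47 of them had a row. H2afz, which encodes the histone variant H2A.Z, was not analysed here. Of the 47, 46 averaged 1 TPM or more and entered the test across genes. They were 17 genes of DNA replication and S phase, 18 of mitosis, 2 of chromatin and microtubules (Hmgb2 and Stmn1), 6 drivers of G1 and entry into S phase, and 3 inhibitors of cell cycle kinases. Tpx2, a spindle assembly factor, averaged 1.10 TPM in AeEMs and 0.880 TPM in AeMMs (n = 4 libraries each) and fell below that filter.

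AeEMs were the tdTomato-negative macrophages and AeMMs the tdTomato-positive ones, with 4 Smart-seq2 bulk libraries each. All came from the bloody malignant ascites of 4 female Ms4a3TdT fate-mapping mice (Ms4a3Cre-RosaTdT) on C57BL/6. By the study's text both groups came from these 4 mice, but which AeEM and AeMM library share a mouse is not stated. The mice were 4 to 5 weeks old when ID8 cells (derived from ovarian surface epithelium of the mouse) were injected into the peritoneum, and ascites was taken 65 days later. Both groups thus shared genotype, tumour and time, and the labels give no treatment. In this model the Ms4a3-driven Cre switches on tdTomato in granulocyte-monocyte progenitors and their progeny, and macrophages without the label were taken as embryonic. Values are deposited as log2(TPM + 1), where TPM measures transcripts relative to gene length and library total. TPM given here were back-transformed from them, and differences are AeEM minus AeMM on the deposited log2 scale.

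The cell cycle runs from G1 through S phase, when the genome is copied, and G2 to mitosis. D-type and E-type cyclins with their kinases release E2F factors from the Rb family, and E2F factors switch on the enzymes of replication. Genes of G2 and mitosis are held down in resting cells through CHR elements and peak later. Resident macrophages of the mouse peritoneal cavity are known to renew by local division, whereas monocytes arise from dividing progenitors in the marrow.

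The back-transformed TPM summed to between 958862 and 974303 per library, and 8498 to 8753 genes reached 1 TPM in a library. Of 12 macrophage markers, all were measured and none passed the test. Their groups did not overlap for Adgre1, Csf1r and Mertk, lower in AeEMs, and for Cd68 and C1qa, higher in AeEMs. Over all genes tested, 12.2% had no overlap in either direction. Summed levels were 91960 to 100280 TPM in AeEMs and 92095 to 105170 TPM in AeMMs. Lyz2 made up most of these sums, at a mean of 68550 TPM in AeEMs and 73057 TPM in AeMMs. No read counts were used, and sequencing depth is therefore unknown. The means of a gene nearly coincide in 3 sets of libraries, formed by replicate 1, by replicate 2, and by replicates 3 and 4, which reflects an adjustment made before deposition. Over the 8801 genes tested, the median range of the 3 set means was 0.01 on the log2 scale. A high value in one library of replicate 1 or 2 therefore goes with a low value in its partner. Leaving out either library of such a pair gives nearly the same difference, so these fits are not separate checks. Because of this adjustment a fit with the 3 sets as a term stands beside the unpaired fit. The unpaired fit does not allow for the adjustment, so its p values may be too small.

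Most of the 46 tested genes, which include the 3 inhibitors, had a higher mean in AeEMs, but only Mcm5 passed the test. The difference was positive for 40 of 46 genes, with a median of 0.30, against 4298 of the 8801 genes tested (48.8%) and a median of -0.0064. Calls were made in limma at an adjusted p under 0.05 (Benjamini-Hochberg, over these 8801 genes), where 110 genes (1.25%) were higher in AeEMs and 102 (1.16%) lower, 2.41% in all. Of the 46, 1 was called higher, none lower and 45 did not pass. At an unadjusted limma p under 0.05, 18 were higher and 0 lower, beside 8.7% and 9.33% of all genes tested. With the 3 sets as a term none of the 46 passed, beside 14 of all genes tested (0.159%), and none passed with the replicate number as a block, beside 5 of all genes (0.0568%). In bulk libraries, fewer cycling cells and less of these transcripts per cell cannot be told apart.

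**Figure D1:**
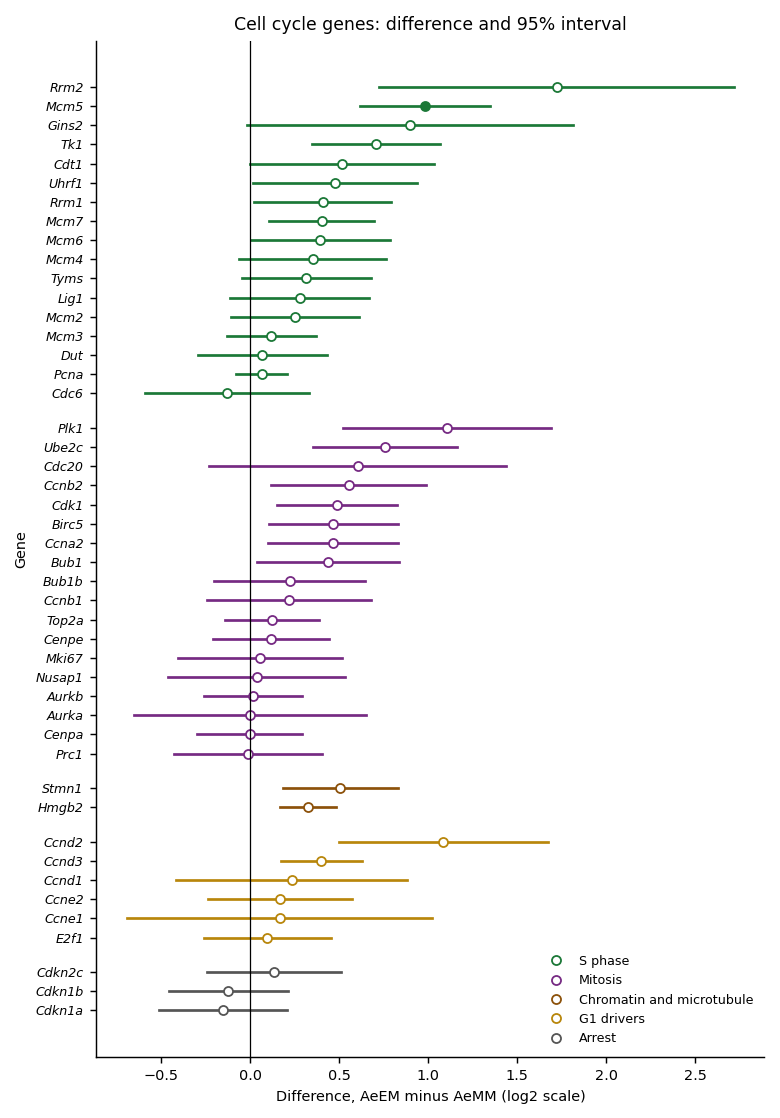
Difference between AeEMs and AeMMs (AeEM minus AeMM, log2 scale) of the 46 tested genes, ordered within each role, with lines for the 95% interval of the unpaired limma fit (n = 4 libraries each). The filled point is Mcm5, the gene past the threshold, and 40 of 46 points lie to the right of 0.

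Every AeEM value exceeded every AeMM value in 13 of the 46 genes, and in 0 genes every AeEM value was below. Over all genes tested, 5.72% had all AeEM libraries above and 6.53% had all below. The 13 were Mcm5, Mcm7, Tk1 and Rrm2 of S phase, Cdk1, Ccna2, Ube2c, Bub1 and Plk1 of mitosis, Stmn1 and Hmgb2, and the D-type cyclins Ccnd2 and Ccnd3. For a single gene, the two-sided exact permutation test over the 70 splits of 8 libraries cannot go below p = 0.0286. It gave this value for each of the 13, before any correction over genes, which follows from their lack of overlap alone. The test treats all 8 libraries as exchangeable. The adjustment made before deposition ties libraries together within sets, so this does not hold, and no conclusion is drawn from this p.

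The levels of these genes spanned a wide range. On the TPM scale, which is per length, Pcna was the most abundant, at a mean of 227 TPM in AeEMs and 217 TPM in AeMMs, followed by Stmn1 at 122 TPM in AeEMs and 86.5 TPM in AeMMs and Hmgb2 at 115 TPM in AeEMs and 91.4 TPM in AeMMs, Stmn1 being the higher of these in AeEMs and Hmgb2 in AeMMs. The lowest of the tested genes in AeEMs was Cdc6, which loads the helicase at origins, at 1.05 TPM in AeEMs and 1.22 TPM in AeMMs. The lowest in AeMMs was Ccnd3, at 1.81 TPM in AeEMs and 1.13 TPM in AeMMs. Prc1, a crosslinker of spindle midzone microtubules, averaged 1.12 TPM in AeEMs and 1.15 TPM in AeMMs. Cdc6 and Prc1 did not differ from each other beyond the spread of their libraries in either group.

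Sequence upstream of the start site is shown for the 3 S phase and the 3 mitotic genes with the smallest limma p. Of these, only Mcm5 passed the test. The stretches end just before the RefSeq start on GRCm38.p6, or where 30 bases of a GENCODE M21 gene have been included, and read along the gene's strand. Capitals mark the E2F motifs searched (TTTCCCGC, TTTGGCGC, TTTCGCGC and TTTGCCGC) and the CHR motifs (TTTGAA and TTTAAA), each on both strands.
Mcm5: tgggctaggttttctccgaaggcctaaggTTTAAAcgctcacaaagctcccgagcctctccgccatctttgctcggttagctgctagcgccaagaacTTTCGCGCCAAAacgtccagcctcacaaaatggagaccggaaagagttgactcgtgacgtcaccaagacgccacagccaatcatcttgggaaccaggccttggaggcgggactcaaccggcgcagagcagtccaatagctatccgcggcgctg
Tk1: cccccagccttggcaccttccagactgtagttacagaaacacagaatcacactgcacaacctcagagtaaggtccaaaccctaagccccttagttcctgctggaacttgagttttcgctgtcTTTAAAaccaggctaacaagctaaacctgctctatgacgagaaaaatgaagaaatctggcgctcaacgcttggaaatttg
Rrm2: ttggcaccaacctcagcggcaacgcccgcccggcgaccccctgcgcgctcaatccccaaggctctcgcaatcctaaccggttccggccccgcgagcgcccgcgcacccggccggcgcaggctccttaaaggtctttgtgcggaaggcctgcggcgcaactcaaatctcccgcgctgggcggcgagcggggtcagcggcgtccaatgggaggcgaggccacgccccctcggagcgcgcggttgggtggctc
Plk1: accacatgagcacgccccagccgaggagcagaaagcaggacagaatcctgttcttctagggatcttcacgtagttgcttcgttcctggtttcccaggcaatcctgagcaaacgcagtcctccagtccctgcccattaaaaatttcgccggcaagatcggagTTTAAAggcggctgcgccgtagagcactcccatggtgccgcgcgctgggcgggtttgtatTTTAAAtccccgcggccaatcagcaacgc
Ube2c: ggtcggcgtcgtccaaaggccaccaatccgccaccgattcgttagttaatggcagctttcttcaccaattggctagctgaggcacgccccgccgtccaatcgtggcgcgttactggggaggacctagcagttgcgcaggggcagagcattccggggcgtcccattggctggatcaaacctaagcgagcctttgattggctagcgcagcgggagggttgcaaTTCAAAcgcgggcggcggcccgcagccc
Cdk1: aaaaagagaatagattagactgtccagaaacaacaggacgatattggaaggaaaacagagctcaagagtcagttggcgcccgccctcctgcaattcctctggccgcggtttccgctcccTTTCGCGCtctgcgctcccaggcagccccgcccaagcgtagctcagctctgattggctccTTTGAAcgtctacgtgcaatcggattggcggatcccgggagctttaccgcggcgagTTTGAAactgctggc
These lie at chr8:75109259-75109508 on the plus strand for Mcm5, chr11:117826063-117826264 on the minus strand for Tk1 and chr12:24708004-24708253 on the plus strand for Rrm2. Those of the mitotic genes lie at chr7:122159185-122159434 (plus) for Plk1, chr2:164769679-164769927 (plus) for Ube2c and chr10:69352913-69353162 (minus) for Cdk1.

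In Mcm5, the capitals hold a pair of overlapping E2F matches on opposite strands, 153 to 146 and 149 to 142 bases before the start, and a CHR match 221 to 216 bases before it. Tk1 had a CHR match 128 to 123 bases before the start and no E2F match in the bases shown, which end 49 bases before the start. Rrm2 had no E2F or CHR match in the bases shown. Plk1 had CHR matches 89 to 84 and 29 to 24 bases before the start, and Ube2c one on the reverse strand 29 to 24 bases before it. Cdk1 held an E2F match at 131 to 124 bases and CHR matches at 71 to 66 and 15 to 10 bases.

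Over windows from 250 bases before to 50 bases after the start, 38 of the 48 genes had a RefSeq window. An E2F match stood in 8 of 15 S phase genes (53.3%) and in 1 of 16 mitotic genes (6.25%), beside 2.6% of all 27025 genes with a window. A CHR match stood in 5 of 15 S phase genes (33.3%) and in 14 of 16 mitotic genes (87.5%), beside 30.6% of all genes with a window. The CHR motifs are short and AT-rich, and each match is a description of these letters, not of a bound site. The windows were matched to differences in level only by listing them side by side.

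Among genes of the replicative helicase, Mcm5 rose in AeEMs. MCM2 to MCM7 form the ring that unwinds DNA at each origin. Mcm5 stood at 9.85, 9.13, 14.4 and 8.97 TPM in AeEM replicates 1 to 4, against 5.12, 5.49, 3.90 and 4.68 TPM in AeMM replicates 1 to 4. Every AeEM library was above every AeMM library, and AeEM replicate 3 stood apart on the high side. The log2 difference was 0.98 (SE 0.16, 95% interval 0.62 to 1.35, limma adjusted p = 0.0185), and it was 0.83, 0.64 and 1.23 within replicate 1, replicate 2 and replicates 3 and 4. The limma adjusted p was 0.155 with the 3 sets as a term, 0.182 with the replicate number as a block, 0.066 without AeEM replicate 1 and 0.059 without AeMM replicate 1.

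The other helicase genes differed less. Mcm7 stood at 12.3, 10.1, 13.8 and 9.70 TPM in AeEMs, against 7.82, 9.47, 7.42 and 8.88 TPM in AeMMs, a log2 difference of 0.40 (95% interval 0.10 to 0.70, limma adjusted p = 0.154). The groups did not overlap, but the lowest AeEM library and the highest AeMM library were close. In GENCODE M21, Mcm7 overlaps Ap4m1 and Cops6 on the opposite strand. Whether strand was used in counting is not given in the sources used here, so reads of these genes cannot be told apart. Mcm6, Mcm4, Mcm2 and Mcm3 had differences of 0.39, 0.35, 0.25 and 0.12, and in each the groups overlapped.

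Enzymes that make DNA precursors gave the largest log2 difference of the set. Rrm2, the S phase subunit of ribonucleotide reductase, stood at 17.8, 13.3, 20.2 and 21.2 TPM in AeEMs, against 4.74, 6.62, 1.16 and 10.3 TPM in AeMMs. The groups did not overlap, and the AeMM libraries were spread widely, with AeMM replicate 3 lowest. The log2 difference was 1.72 (SE 0.44, 95% interval 0.72 to 2.72), and it did not pass (limma adjusted p = 0.080). Without AeMM replicate 3 the difference was 1.25 and passed (limma adjusted p = 0.047).

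Tk1, the thymidine kinase of dividing cells, stood at 10.4, 8.70, 11.9 and 11.6 TPM in AeEMs, against 6.27, 7.53, 4.39 and 6.60 TPM in AeMMs. The groups did not overlap, with a log2 difference of 0.71 (SE 0.16, limma adjusted p = 0.056). Tk1 overlaps Afmid on the opposite strand, with the same limit on its reads. Rrm1, the larger subunit of ribonucleotide reductase, Tyms, which makes thymidylate, and Dut, which removes dUTP, had differences of 0.41, 0.31 and 0.07. None of these 3 passed, and in each the groups overlapped.

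Pcna, the sliding clamp of DNA polymerases, hardly differed. It stood at 240, 213, 231 and 224 TPM in AeEMs, against 207, 230, 208 and 223 TPM in AeMMs. The values of both groups interleaved, and the log2 difference was 0.06 with a 95% interval of -0.08 to 0.21. Among factors of origin licensing and firing, Gins2, a helicase subunit, and Cdt1, which loads the helicase, had differences of 0.90 and 0.52, with overlapping groups, and that of Gins2 was 0.50 without AeMM replicate 3. Uhrf1, which links replication to DNA methylation, and Lig1, which joins Okazaki fragments, had differences of 0.48 and 0.28, also with overlap. Cdc6 was the only S phase gene with a negative difference, -0.13 (95% interval -0.60 to 0.33). The range inside the S phase set thus ran from -0.13 to 1.72, with a median of 0.39.

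**Figure D2:**
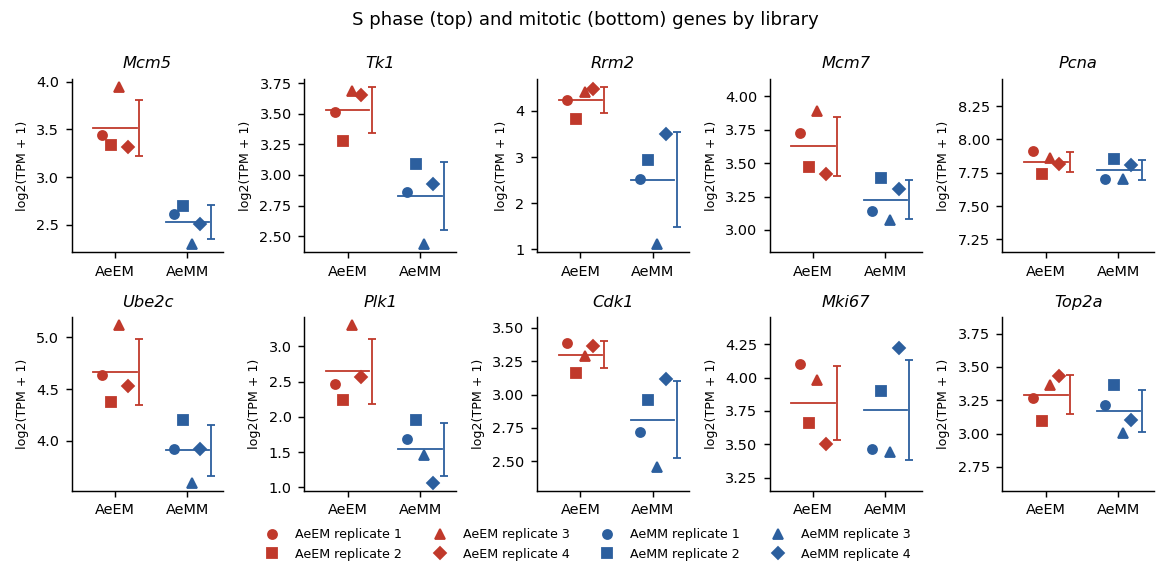
Level of 5 S phase genes (upper row) and 5 mitotic genes (lower row) in each library, as log2(TPM + 1), with AeEMs left of AeMMs, a line at each group mean, and a bar for the SD (n = 4). Axes do not start at 0. The groups are apart in Mcm5, Tk1, Rrm2, Mcm7, Ube2c, Plk1 and Cdk1, and interleave in Pcna, Mki67 and Top2a.

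None of the 18 mitotic genes passed the test, beside 2.41% of all genes tested, and their differences ran from -0.01 to 1.11. Plk1, the polo-like kinase of mitotic entry and exit, stood at 4.54, 3.73, 8.85 and 4.92 TPM in AeEMs, against 2.22, 2.86, 1.749 and 1.09 TPM in AeMMs. The groups did not overlap, and AeEM replicate 3 was highest by far. The log2 difference was 1.11 (SE 0.26, 95% interval 0.52 to 1.69, limma adjusted p = 0.065).

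Ube2c, the ubiquitin-conjugating enzyme of the anaphase-promoting complex, stood at 24.0, 19.8, 33.7 and 22.1 TPM in AeEMs, against 14.2, 17.4, 11.1 and 14.1 TPM in AeMMs. The groups did not overlap, and the log2 difference was 0.76 (SE 0.18, limma adjusted p = 0.065). Cdk1, the kinase that drives mitotic entry, stood at 9.48, 7.93, 8.75 and 9.29 TPM in AeEMs, against 5.57, 6.77, 4.48 and 7.69 TPM in AeMMs. Its AeMM libraries were more spread than its AeEM libraries, and its log2 difference was 0.49 (limma adjusted p = 0.13). Birc5, or survivin, of the chromosomal passenger complex, stood at 33.5, 26.7, 43.1 and 29.9 TPM in AeEMs, against 23.3, 28.7, 19.6 and 23.1 TPM in AeMMs. AeMM replicate 2 lay above AeEM replicate 2, so the groups overlapped, with a log2 difference of 0.46 (limma adjusted p = 0.174).

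Mki67 and Top2a, the genes most used as marks of proliferation, hardly differed. Mki67, which coats mitotic chromosomes, stood at 16.2, 11.6, 14.8 and 10.3 TPM in AeEMs, against 10.02, 13.9, 9.87 and 17.6 TPM in AeMMs, and AeMM replicate 4 was the highest of all. Its log2 difference was 0.05 with a 95% interval of -0.41 to 0.52. Top2a, which untangles sister chromatids, stood at 8.63, 7.55, 9.33 and 9.80 TPM in AeEMs, against 8.26, 9.30, 7.03 and 7.57 TPM in AeMMs. The libraries interleaved, with a log2 difference of 0.12 (95% interval -0.14 to 0.38).

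The other mitotic genes followed no single pattern. Cdc20, which activates the anaphase-promoting complex, and the B-type cyclins Ccnb2 and Ccnb1 had differences of 0.60, 0.55 and 0.22 with overlapping groups, and Ccna2, an S and G2 cyclin, 0.46 without overlap. The difference of Cdc20 was 0.25 without AeMM replicate 4. The checkpoint kinases Bub1 and Bub1b had differences of 0.44 and 0.22, and Cenpe, a kinetochore motor, 0.11. At the other end, Aurkb, the kinase of the chromosomal passenger complex, Nusap1, a spindle protein, Cenpa, the centromeric histone, and Prc1 had differences of 0.01, 0.04, -0.01 and -0.01. Aurka, the spindle pole kinase, had a difference of -0.0040 with a 95% interval of -0.66 to 0.65. The median of the 18 mitotic genes was 0.22. Birc5 and Aurkb encode partners in one complex, at mean levels of 33.3 and 16.98 TPM in AeEMs and 23.7 and 16.8 TPM in AeMMs.

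Both genes of chromatin and microtubules had groups that did not overlap. Stmn1, or stathmin, which destabilises microtubules, stood at 129, 111, 141 and 109 TPM in AeEMs, against 80.8, 93.7, 67.0 and 105 TPM in AeMMs. AeEM replicate 4 and AeMM replicate 4 were close, and the log2 difference was 0.51 (SE 0.14, limma adjusted p = 0.108). Hmgb2, a DNA-bending chromatin protein, stood at 114, 107, 125 and 114 TPM in AeEMs, against 92.6, 97.7, 86.4 and 89.1 TPM in AeMMs. Its libraries were tight within each group, and the log2 difference of 0.32 (SE 0.07) missed the threshold narrowly (limma adjusted p = 0.052).

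Among the drivers of G1, Ccnd2 and Ccnd3 separated the groups and Ccnd1 did not. The D-type cyclins bind CDK4 and CDK6 and begin the phosphorylation of Rb. Ccnd2 stood at 7.83, 6.71, 5.33 and 5.17 TPM in AeEMs, against 1.78, 2.17, 4.87 and 1.55 TPM in AeMMs. AeMM replicate 3 came close to the lowest AeEM library, while the other AeMM libraries were far below. The log2 difference was 1.08 (SE 0.26, limma adjusted p = 0.069). Without AeMM replicate 3 it was 1.35 and passed (limma adjusted p = 0.0088).

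Ccnd3 stood at 1.74, 1.83, 1.92 and 1.74 TPM in AeEMs, against 1.19, 1.12, 1.06 and 1.16 TPM in AeMMs, with a log2 difference of 0.40 (SE 0.10, limma adjusted p = 0.079). It was close to the filter in level and narrow in spread, and it overlaps Bysl on the opposite strand. Ccnd1 stood at 7.31, 6.88, 7.70 and 3.95 TPM in AeEMs, against 4.50, 4.76, 9.72 and 3.35 TPM in AeMMs. AeMM replicate 3 was the highest of all 8 for Ccnd1, and the log2 difference was 0.23 (95% interval -0.42 to 0.88). Ccnd1 overlaps LTO1 in the same way. Ccne1 and Ccne2, the E-type cyclins, had differences of 0.16 and 0.17, and E2f1, an activating E2F factor, 0.10. Ccne2 stood at 1.601, 1.85, 3.06 and 2.11 TPM in AeEMs, against 2.37, 2.03, 1.40 and 1.40 TPM in AeMMs, with overlap, and it overlaps Ints8 on the opposite strand.

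The 3 inhibitors of cell cycle kinases did not pass the test in either direction, beside 2.41% of all genes tested that did. Cdkn1a, the p21 inhibitor induced by p53, stood at 37.2, 26.9, 30.9 and 28.5 TPM in AeEMs, against 28.0, 39.0, 43.1 and 29.2 TPM in AeMMs, a log2 difference of -0.15 (95% interval -0.51 to 0.20). The groups interleaved, and replicates 1 and 2 went opposite ways. Cdkn1b, or p27, stood at 9.51, 8.25, 8.41 and 11.9 TPM in AeEMs, against 10.4, 11.8, 8.12 and 11.5 TPM in AeMMs, a difference of -0.12 (95% interval -0.46 to 0.21). Cdkn2c, the p18 inhibitor of CDK4 and CDK6, stood at 11.3, 10.5, 8.84 and 16.3 TPM in AeEMs, against 10.4, 11.3, 9.07 and 10.7 TPM in AeMMs, a difference of 0.13 (95% interval -0.24 to 0.51). AeEM replicate 4 was high and the other 7 libraries were alike. The median over the 3 was -0.12, against 0.30 over the whole set, a contrast that was not tested.

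**Figure D3:**
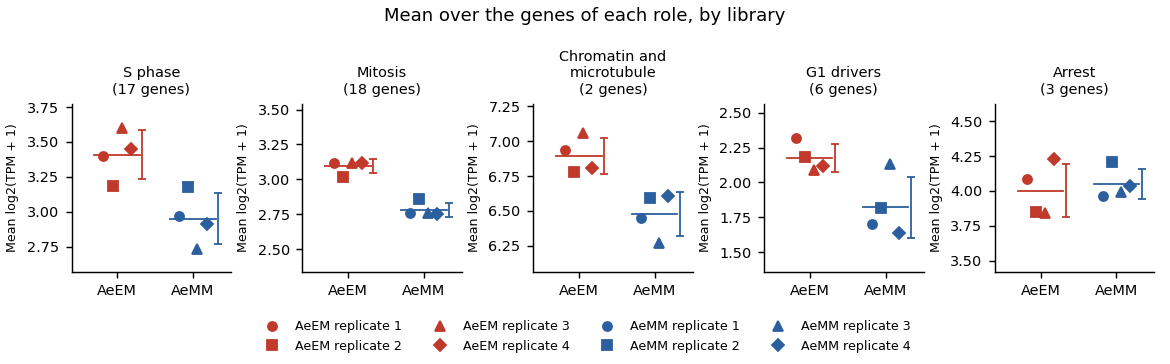
Mean log2(TPM + 1) over the genes of each role in each library, with AeEMs left of AeMMs, a line at each group mean, and a bar for the SD (n = 4). Axes do not start at 0. AeEM libraries lie above AeMM libraries for mitosis and for the 2 genes of chromatin and microtubules, nearly touch for S phase, and overlap for G1 drivers and arrest.

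Averaged over the genes of each role, AeEMs stood higher for S phase, mitosis, chromatin and microtubules, and G1 drivers, but not for arrest. The S phase mean was 3.41 ± 0.17 in AeEMs and 2.95 ± 0.18 in AeMMs, and the mitotic mean 3.09 ± 0.05 in AeEMs and 2.78 ± 0.05 in AeMMs (log2 scale, SD, n = 4 libraries each). The lowest AeEM library and the highest AeMM library met in S phase, both from replicate 2, at 3.18 and 3.18, and stayed apart in mitosis, at 3.02 and 2.86. The G1 mean was 2.18 ± 0.10 in AeEMs and 1.82 ± 0.22 in AeMMs, and the arrest mean 4.001 ± 0.19 in AeEMs and 4.05 ± 0.11 in AeMMs. These means are descriptions over genes that were chosen together, and no test was run on them.

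The S phase and mitotic genes were also counted within each of the 3 sets of libraries. In replicate 1, 15 of 17 S phase genes and 15 of 18 mitotic genes were higher in the AeEM library, with median differences of 0.32 and 0.39. In replicate 2, 6 of 17 S phase genes were higher, with a median of -0.11, against 12 of 18 mitotic genes with a median of 0.19. In replicates 3 and 4 together, 16 of 17 S phase genes and 12 of 18 mitotic genes were higher, with medians of 0.67 and 0.26. Over all genes tested, 48.7%, 34.2% and 55.7% were higher in the 3 sets, with medians of -0.01, -0.14 and 0.05. The S phase genes of replicate 2 (35.3% higher) thus stood at the background of that set. Whether S phase and mitotic genes differed in this was not tested.

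**Figure D4:**
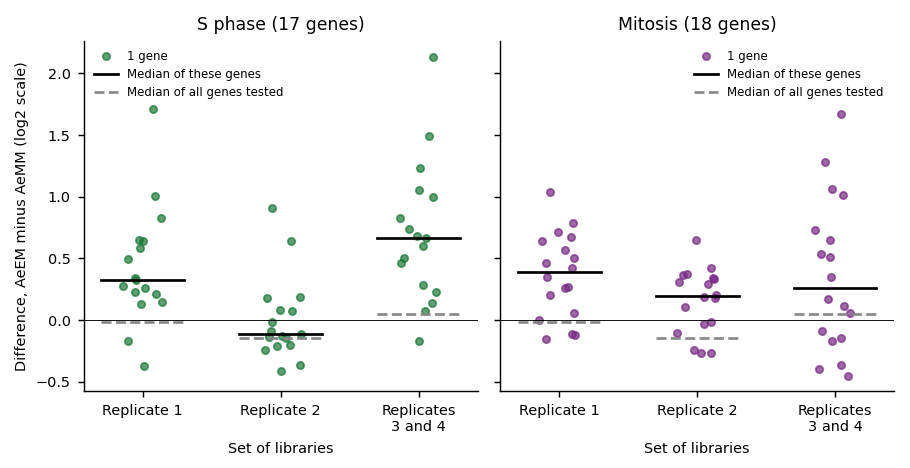
Difference between AeEM and AeMM libraries (AeEM minus AeMM, log2 scale) within each of the 3 sets, for 17 S phase genes (left) and 18 mitotic genes (right), with 1 point per gene. The solid line is the median of these genes and the dashed line the median of all genes tested. The S phase median falls to -0.11 in replicate 2, against 0.32 and 0.67 in the other sets.

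Over the whole set, 15 of 46 genes (32.6%) were higher in AeEMs in all 3 sets, beside 13.4% of all genes tested. AeEM replicate 3 held the highest value in 17 of the 46 genes and AeEM replicate 4 in 15, while AeMM replicate 3 held the lowest in 22 and AeMM replicate 4 in 15. These are 37.0%, 32.6%, 47.8% and 32.6% of the set. Over all genes tested, AeEM replicates 3 and 4 held the highest value in 27.5% and 20.2%, and AeMM replicates 3 and 4 the lowest in 19.1% and 25.5%. Rrm2, Gins2, Mcm6, Tk1 and Stmn1 were all at their lowest in AeMM replicate 3. This library was also the one in which Ccnd1 was highest.

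Other genes of the same pathways, chosen for their role, gave mixed results. Of 127 tested genes in these lists, 2 were called higher in AeEMs and 5 lower, beside 1.25% and 1.16% of all genes tested. None passed with the 3 sets as a term. The difference was positive for 79 of the 127 (62.2%), beside 48.8% of all genes tested, with a median of 0.09. Among 30 other replication genes, 22 were positive, none was called, and the median was 0.12. Genes with a small p included Gins3, a helicase subunit, at 0.82, Rpa2, which coats single-stranded DNA, at 0.73, and Asf1b, a histone chaperone, at 0.40. These 3 had non-overlapping groups and limma adjusted p values of 0.135, 0.176 and 0.116.

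Among 45 other mitotic genes, 31 were positive with a median of 0.25, 1 was called higher and 2 lower. Over all genes tested, 48.8% were positive, 1.25% called higher and 1.16% called lower. Spag5, a spindle protein, rose in AeEMs, at 1.73, 1.76, 2.48 and 2.07 TPM, against 0.848, 0.825, 0.381 and 0.736 TPM in AeMMs (log2 difference 0.83, limma adjusted p = 0.024). Every AeMM library was below 1 TPM, so Spag5 met the filter only through AeEMs. With no filter it did not pass (limma adjusted p = 0.057). Pttg1, or securin, which holds separase in check until anaphase, fell in AeEMs, at 23.5, 24.2, 24.0 and 21.6 TPM, against 34.0, 32.7, 33.3 and 36.0 TPM in AeMMs (log2 difference -0.53, limma adjusted p = 0.0087). Pttg1 thus went against most mitotic genes, with tight libraries in both groups. Ncapg2, a condensin II subunit, fell by 0.61 on the log2 scale (limma adjusted p = 0.043), with 1.79 TPM in AeEMs and 3.24 TPM in AeMMs. Pbk, a mitotic kinase, had a difference of 1.02 that did not pass (limma adjusted p = 0.145) except without AeEM replicate 3, where the limma adjusted p was 0.033. Leaving out 1 library kept the call of Pttg1 in every case (limma adjusted p 0.017 to 0.044), lost that of Ncapg2 in every case (0.075 to 0.119), and kept that of Spag5 only when replicate 3 of AeEMs or of AeMMs was left out (0.044 and 0.036).

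Of 23 tested genes among G1 kinases, the Rb family and E2F factors, 1 rose and 1 fell in AeEMs, beside 1.25% and 1.16% of all genes tested. E2f8, an atypical E2F that represses E2F targets late in the cycle, stood at 2.76, 2.52, 4.42 and 3.95 TPM in AeEMs, against 1.15, 1.34, 0.871 and 0.349 TPM in AeMMs. The groups were well apart, with a log2 difference of 1.203 (limma adjusted p = 0.025). The AeMM mean was below 1 TPM, so E2f8 met the filter only through AeEMs. With no filter E2f8 did not pass (limma adjusted p = 0.081). The call of E2f8 was lost without AeEM replicate 1 (0.067), AeEM replicate 4 (0.059), AeMM replicate 1 (0.065) or AeMM replicate 3 (limma adjusted p = 0.0504). Ccng1, or cyclin G1, a p53 target, fell by 0.39 on the log2 scale, at 57.3, 62.2, 64.8 and 59.3 TPM in AeEMs, against 85.0, 78.2, 79.1 and 78.4 TPM in AeMMs (limma adjusted p = 0.022). Its call was lost without replicate 1 of either group (limma adjusted p 0.090 and 0.093), without replicate 2 of either group (0.072 and 0.072) and without AeEM replicate 4 (0.051). The fits of each same-numbered pair of replicate 1 or 2 are not separate checks, because the adjustment ties their libraries. Rbl1, or p107, had a difference of 0.44 and Rb1 one of -0.25, and neither passed. Rb1 overlaps Lpar6 and Rcbtb2 on the opposite strand.

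None of 19 other arrest genes and p53 targets passed, beside 2.41% of all genes tested. The difference was positive for 10 and negative for 9, from -0.61 to 0.49, with a median of 0.0033. Trp53 itself had a difference of 0.49, Cdkn2d, the p19 inhibitor of CDK4 and CDK6, 0.38, Bax, a p53 target that promotes apoptosis, 0.29, and Btg1, an antiproliferative factor, 0.20 (limma adjusted p 0.117, 0.163, 0.164 and 0.210). Trp53 passed only without AeMM replicate 3 (limma adjusted p = 0.032). The arrest genes thus showed no common direction.

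Of 10 tested genes of macrophage growth control, 8 were lower in AeEMs, beside 4503 of the 8801 genes tested. The median over the 10 was -0.24. Of the 8, 2 passed, beside 1.16% of all genes tested that were called lower. Bhlhe41, a basic helix-loop-helix transcription factor, fell in AeEMs, at 14.98, 14.5, 17.2 and 14.5 TPM, against 27.8, 28.1, 23.8 and 26.7 TPM in AeMMs (log2 difference -0.76, SE 0.09, limma adjusted p = 0.0044). Its groups were far apart, it kept the call without any 1 library (limma adjusted p 0.0064 to 0.027), and it stood at 0.071 with the 3 sets as a term. Maf, which limits the self-renewal of mouse macrophages, fell in AeEMs, at 89.5, 86.9, 103 and 99.4 TPM, against 137, 141, 135 and 110 TPM in AeMMs (log2 difference -0.46, limma adjusted p = 0.047). The call of Maf held only without AeEM replicate 3 or without AeMM replicate 4, and was lost in the other leave-one-out fits, with limma adjusted p up to 0.144. Klf2, a Krüppel-like transcription factor, had a difference of -0.64 (limma adjusted p = 0.072), which passed without AeEM replicate 3 (0.014). Csf1r, the receptor of the macrophage growth factor CSF1, had a difference of -0.28 and did not pass (limma adjusted p = 0.082).

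**Figure D5:**
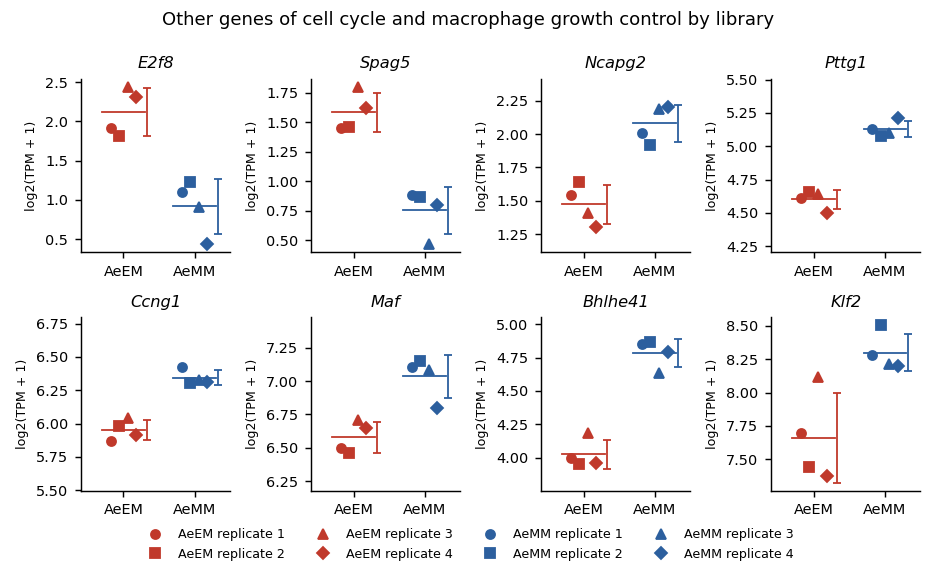
Level of 8 further genes of cell cycle and macrophage growth control in each library, as log2(TPM + 1), with AeEMs left of AeMMs, a line at each group mean, and a bar for the SD (n = 4). Axes do not start at 0. E2f8 and Spag5 are higher in AeEMs, and Ncapg2, Pttg1, Ccng1, Maf and Bhlhe41 are lower. Klf2 was also lower in mean but did not pass.

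Markers of other cells differed between the groups and are given beside these results. Of 10 dendritic cell markers, 3 were tested and 2, Cd209a and Itgax, were higher in AeEMs. The whole list summed to 45.4 to 108 TPM in AeEMs and 6.91 to 14.8 TPM in AeMMs. Cd209a made up most of this sum in AeEMs, at a mean of 66.4 TPM, and averaged 4.51 TPM in AeMMs. The remaining tested marker, Ccr7, averaged 3.52 TPM in AeEMs and 0.578 TPM in AeMMs without passing. Flt3 and Zbtb46, which define dendritic cells, averaged 0.345 and 0.596 TPM in AeEMs, against 0.157 and 0.247 TPM in AeMMs. Of the untested markers, Dpp4 had groups that did not overlap, at 1.19 TPM in AeEMs and 0.300 TPM in AeMMs. Xcr1 and Kmo, also untested, had higher means in AeEMs. Clec9a and Siglech had lower means, at 0.606 and 0.052 TPM in AeEMs, against 0.782 and 0.080 TPM in AeMMs. Of 8 markers of granulocyte-monocyte progenitors, a dividing population, 7 had a row and only Prtn3 was tested, which was lower in AeEMs, and the list summed to 24.5 to 30.8 TPM in AeEMs and 48.2 to 65.7 TPM in AeMMs. Prtn3 made up most of this sum, at a mean of 26.4 TPM in AeEMs and 52.5 TPM in AeMMs. The other 6 averaged under 1 TPM over all libraries. Of these, Cebpe and Kit had higher means in AeEMs, and Mpo, Elane, Ctsg and Cd34 lower means. Mpo averaged 0.0087 TPM in AeEMs and 0.031 TPM in AeMMs. Of 10 neutrophil markers, 9 had a row and 3 were tested. S100a8 was lower in AeEMs, and the list summed to 21.2 to 23.9 TPM in AeEMs and 33.2 to 47.2 TPM in AeMMs. S100a8 averaged 11.3 TPM in AeEMs and 24.3 TPM in AeMMs, and Csf3r 9.15 TPM in AeEMs and 13.7 TPM in AeMMs. Mmp8 went the other way without passing, at 1.97 TPM in AeEMs and 0.994 TPM in AeMMs. The other 6 averaged under 1 TPM over all libraries. Of these, Retnlg, Cxcr2 and Ltf had higher means in AeEMs, and S100a9, Camp and Ngp lower means. Of 8 monocyte markers, 7 were tested and Ly6c2 and Chil3 were lower in AeEMs, while the list summed to 235 to 349 TPM in AeEMs and 221 to 280 TPM in AeMMs.

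The lists of the remaining cell types held no called gene, with 7 of 9 markers tested for B cells, 3 of 11 for T cells, 2 of 11 for ID8 or mesothelial cells, 5 of 8 for red cells and 2 of 5 for platelets. Markers of B cells summed to 119 to 177 TPM in AeEMs and 150 to 179 TPM in AeMMs, those of T cells to 3.61 to 20.9 TPM in AeEMs and 10.7 to 25.0 TPM in AeMMs, and those of ID8 or mesothelial cells to 4.35 to 7.11 TPM in AeEMs and 4.94 to 6.80 TPM in AeMMs. Those of red cells summed to 7665 to 12746 TPM in AeEMs and 4210 to 10477 TPM in AeMMs, and those of platelets to 4863 to 6067 TPM in AeEMs and 4954 to 5382 TPM in AeMMs. The platelet sum was nearly all Pf4, at a mean of 5353 TPM in AeEMs and 5139 TPM in AeMMs. Ppbp averaged 38.9 TPM in AeEMs and 33.2 TPM in AeMMs. Itga2b averaged 0.071 TPM in AeEMs and 0.032 TPM in AeMMs, and Gp9 averaged 0.0059 TPM in AeEMs and 0.036 TPM in AeMMs. Of the markers of NK cells (6) and of eosinophils or mast cells (8), none reached the filter, and their sums stayed at up to 1.85 and 5.56 TPM in any library. The part of these cells in the differences of cycle genes was not tested.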

How the data were processed

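Bulk Smart-seq2 libraries of sorted AeEMs and AeMMs (4 each) were taken from the deposited table. The authors trimmed the reads (fastp), aligned them to mm10 (STAR 2.7.2a) and assigned them to genes (Subread featureCounts). The deposited values are log2(TPM + 1), with small negative values after an adjustment by the authors between 3 sets of libraries. The conversion to TPM, the log step, that adjustment and the annotation are not given in the sources used here. Depth is unknown, and precision rests on the spread of 4 libraries per group.

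Groups came from the labels. AeEM minus AeMM was fitted without pairing in limma 3.58.1 (R 4.3.3, eBayes with trend). The fit took in the 8801 genes that averaged 1 TPM or more, and p values were Benjamini-Hochberg adjusted over all of them (threshold 0.05). A fit with the 3 sets as a term stands beside it. Exact two-sided permutation tests over 70 splits served for single values (Python 3.11.15, pandas 2.3.3, scipy 1.17.1). These permutation tests treat all 8 libraries as exchangeable and do not allow for the adjustment between sets. The fits were tested on simulated data. The 8 libraries come from 4 mice in 4 independent runs, so AeEMs and AeMMs share mice, but neither the study's methods nor the labels say that equal replicate numbers mark the same mouse. The fit with the replicate number as a block is given beside the unpaired one. The adjustment fixes the sum of same-numbered libraries in replicates 1 and 2, so their deviations cannot show pairing.

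The members and lists were chosen with earlier results of these data known. Values per library are given for genes past the threshold, for the 4 of each role with the smallest p, and for Pcna, Mki67, Top2a, the D-type cyclins and the arrest genes. Of the other lists, called genes and up to 4 genes with the smallest p are named, except for a gene that is not reported here. Alternatives changed the filter (none, 5 TPM), pseudocount (0.1, 5), scaling (quantile, median of ratios), the trend and the block, and left out each library. Positions are from GENCODE M21 and upstream sequences from RefSeq (GRCm38.p6). Spike-ins, flow cytometry and human data were not analysed here.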

Additional observations from a re-analysis of the deposited data

Results flagged for a closer look

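In 5 of 92 groups of 4 libraries (46 genes in both groups), 1 library lay far from the others, its gap to the nearest divided by the range of the group, being above Dixon's 95% critical value. Chance gives about 1 in 20 groups. Values are log2(TPM + 1). Mcm6 was lowest in AeMM replicate 3, at 2.33, with the nearest AeMM library at 2.90. Bub1 was lowest in the same library, at 0.78, with the nearest at 1.22. Cdc20 was lowest in AeMM replicate 4, at 1.98, with the nearest at 3.36, and Aurka in AeMM replicate 1, at 1.26, with the nearest at 1.91. Nusap1 was lowest in AeEM replicate 3, at 1.23, with the nearest AeEM library at 1.89.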

How the results depend on the processing

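The count of 1 gene past the threshold among the 46 fell to 0 with the 3 sets as a term, with the replicate block and with no filter on low values (where the adjusted p of Mcm5 was 0.055). It was 4 with a filter of 5 TPM (Mcm5, Tk1, Ube2c and Hmgb2), 5 with quantile scaling and 5 with median-of-ratios scaling (Mcm5, Tk1, Ube2c, Plk1 and Hmgb2), and 2 without the trend (Mcm5 and Ccnd3). Leaving out 1 library gave 0 to 3, with 0 when replicate 1 of either group was left out and 3 when AeMM replicate 3 was (Mcm5, Rrm2 and Ccnd2). The count of 7 among the other pathway genes was 0 with the 3 sets as a term and 0 with the replicate block, 3 with no filter, and 2 to 8 without 1 library. The count of 212 over all genes was 14 with the 3 sets, 5 with the replicate block, 136 without the trend, and 73 to 203 without 1 library. With the 3 sets as a term the differences stayed the same and the SE changed. For Mcm5 the difference was 0.98 in both fits, with an SE of 0.16 unpaired and 0.20 with the 3 sets. The unpaired fit does not allow for the adjustment between sets, so its p values may be too small. The cause of the other changes was not tested.

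The median of the mitotic genes (0.22) was 0.46 with a filter of 5 TPM, which tests fewer genes, 0.30 with a pseudocount of 0.1, 0.13 with a pseudocount of 5, and 0.19 to 0.28 without 1 library. That of the S phase genes (0.39) was 0.26 with a pseudocount of 5 and 0.26 to 0.45 without 1 library. Without some 1 library the sign turned in 11 of the 46 genes, which were Cdc6, Dut, Mki67, Aurka, Aurkb, Cenpa, Nusap1, Prc1, Ccne1, E2f1 and Cdkn2c, and it held in the other 35. Aurka, for example, ranged from -0.18 to 0.25. Mki67 turned to -0.043 and -0.044 without replicate 1 of AeEMs and of AeMMs and -0.0028 and -0.051 without replicate 3 of AeEMs and of AeMMs (range -0.051 to 0.21), and Cdkn2c to -0.024 without AeEM replicate 4 (range -0.024 to 0.25). Of all values of the 40 genes described with their statistics under the alternatives, 588 kept their direction and their side of the threshold, 20 came to pass it, 55 no longer passed it and 5 changed sign. The 3 sets, the replicate block, the filters and the trend leave the difference itself unchanged. Direction in these settings was therefore fixed in advance. The adjustment between sets and the unknown depth limit all of these tests. A p that misses the threshold at 4 libraries per group does not show equal levels.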

Other observations

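Genes of DNA replication below the filter of 1 TPM held values that entered no comparison. Mcm10, which binds the helicase at firing origins, averaged 1.29 TPM in AeEMs and 0.530 TPM in AeMMs, and Cdc45, a subunit of the active helicase, 0.857 TPM in AeEMs and 0.441 TPM in AeMMs (n = 4 libraries each). In both genes the groups did not overlap, and they were chosen after their values were seen.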
